A study of Homo sapiens with 16 samples.

Results

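The integrin and laminin chain genes were followed in quiescent U2OS cells, an established human osteosarcoma line, after treatment with either of 2 DYRK1A inhibitors. Members were the rows of the gene table named as an integrin alpha chain (ITGA and a number or letter), an integrin beta chain (ITGB and a number) or a laminin alpha, beta or gamma chain (LAMA, LAMB or LAMC and a number). This gave 38 genes of 59081, of which 37 are reported here and counted as members below, namely 18 integrin alpha chains, 8 integrin beta chains and 11 laminin chains. A mean of 10 or more counts over the 16 libraries was found for 33 of the 37. The other 4 had mean counts of 7.13 (ITGAD), 6.5 (ITGAL), 2.94 (ITGB7) and 1.62 (LAMB4), and the same 4 were left out of the tests by the filter on low counts. The first 2 are leukocyte integrin alpha chains and ITGB7 is the beta chain of lymphocyte homing receptors.

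All cells were grown to confluence, kept without serum for 48 h and treated for the last 24 h. The 4 groups of 4 libraries were harmine hydrochloride (10 µM), a beta-carboline alkaloid, with its mock treatment water, and INDY (25 µM), a benzothiazole, with its mock treatment DMSO. DYRK1A is the kinase whose activity is needed to assemble DREAM, a repressor complex of quiescent cells. No control library was shared by the 2 compounds, and their doses and vehicles differed, so each comparison is of the treatments as given. The cells came from 1 line. As nothing states that the 4 libraries of a group came from separate cultures, p-values only reflect variation among these libraries, possibly of technical origin.

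An integrin is a pair of 1 alpha and 1 beta chain that spans the cell membrane, holds matrix proteins outside the cell and binds the actin cytoskeleton inside it through adaptors such as talin. The alpha chain largely sets which ligand is bound (collagens, laminins, fibronectin or proteins with an RGD motif), and ITGB1 is the partner of most alpha chains. Laminins are trimers of 1 alpha, 1 beta and 1 gamma chain that assemble into the sheet of basement membranes, and several integrins are their receptors. In bone-forming cells, integrins attach the cells to the collagen-rich bone matrix.

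Upstream sequence is shown for 4 members on which results below turn: LAMB3 and LAMA3, whose products join in 1 laminin trimer but whose mRNA moved in opposite directions with INDY, and ITGB5 and ITGAM, which had some of the largest falls. Each is the 250 bases before a transcription start listed by RefSeq (GRCh38.p14), written 5′ to 3′ on the strand of the gene, with capitals marking AP-1 motif letters TGACTCA, searched on both strands. Starts were listed for 26 of the 37 members (33 starts).
LAMA3, chr18:23872770-23873019, plus strand: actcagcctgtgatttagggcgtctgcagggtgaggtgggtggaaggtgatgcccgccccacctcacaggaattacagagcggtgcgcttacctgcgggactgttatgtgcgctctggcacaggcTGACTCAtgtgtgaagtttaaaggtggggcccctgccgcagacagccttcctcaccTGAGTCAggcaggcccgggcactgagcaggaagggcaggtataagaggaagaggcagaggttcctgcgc
LAMB3, chr1:209651375-209651624, minus strand: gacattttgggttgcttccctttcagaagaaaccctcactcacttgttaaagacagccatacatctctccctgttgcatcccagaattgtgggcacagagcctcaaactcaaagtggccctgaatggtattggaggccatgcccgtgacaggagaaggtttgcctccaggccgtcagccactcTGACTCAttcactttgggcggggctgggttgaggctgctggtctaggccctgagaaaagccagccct
ITGB5, chr3:124901419-124901668, minus strand: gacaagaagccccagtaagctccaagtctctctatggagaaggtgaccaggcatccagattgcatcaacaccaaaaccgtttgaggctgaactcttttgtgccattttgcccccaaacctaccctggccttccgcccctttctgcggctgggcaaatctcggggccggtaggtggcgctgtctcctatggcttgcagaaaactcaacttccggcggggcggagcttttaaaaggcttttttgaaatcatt
ITGAM, chr16:31259725-31259974, plus strand: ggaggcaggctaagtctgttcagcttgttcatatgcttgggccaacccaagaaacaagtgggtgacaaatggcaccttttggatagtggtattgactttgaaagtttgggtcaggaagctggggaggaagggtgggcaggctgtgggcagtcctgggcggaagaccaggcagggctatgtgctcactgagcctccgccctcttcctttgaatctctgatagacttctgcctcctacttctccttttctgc
The LAMA3 stretch held the motif at 125 and 69 bases before the start, and that of LAMB3, which lies before the most downstream of 3 starts listed for the gene and whose window takes in 20 exonic bases of LAMB3, held it at 67. The LAMA3 stretch lies inside the gene (chr18:23689453-23956222), before an internal start. The counts of LAMA3 were summed over the whole gene, so they are not those of this start alone. The windows before the other 2 LAMB3 starts held no AP-1 letters. The ITGAM window takes in 8 exonic bases of ITGAM. The AP-1 letters were present before 6.06% of the members' 33 starts and before 4.2% of 35116 starts of all genes. The TEAD letters GGAATG stood before starts of ITGA10, ITGA5, ITGB1 and LAMA2 (12.1% of the members' starts and 11.9% of all), and 1 of 8 E2F-type forms (TTTCCCGC, TTTCCCGG, TTTCGCGC, TTTCGCGG, TTTGCCGC, TTTGCCGG, TTTGGCGC and TTTGGCGG) before ITGA1 (3.03% and 5.23%), both searched on both strands. No letters of the 3 motifs were found in the ITGB5 and ITGAM windows.

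The libraries held 44301910 to 65889667 estimated counts. Water replicates 1 and 4 stood apart from water 2 and 3 on principal component 3 (26.6 and 34.6 against 4.3 and 3.9), and INDY replicates 1 and 3 from INDY 2 and 4 on components 1 and 3. Effects of a compound whose call changed, or whose called size moved by over 1.5 times, without water 1 and 4 or without INDY 1 and 3 are given both ways. Of 8 osteoblast lineage markers, COL1A1, SPARC, RUNX2 and ALPL were well detected, whereas SP7 and IBSP, which mark committed osteoblasts, were at or near 0. The summed level of the 8 was 858 to 947 CPM (counts scaled to a common library size, with TMM factors) in water, 1104 to 1142 in harmine, 822 to 902 in DMSO and 581 to 693 in INDY. COL1A2 and BGLAP were also low, with group means between 0.0318 and 0.225 CPM. Most of the sum was SPARC, with means of 696 CPM in water and 938 in harmine, whereas COL1A1 was at 157 and 125 CPM, ALPL at 21.0 and 16.5 and RUNX2 at 33.1 and 49.5. In DMSO and INDY, SPARC was at 684 and 505 CPM, COL1A1 at 144 and 112, ALPL at 18.3 and 3.77 and RUNX2 at 31.5 and 21.8. In bulk RNA, fewer cells with a transcript and less of it per cell cannot be told apart.

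With harmine, more members fell than rose. By edgeR's quasi-likelihood test (adjusted p under 0.01 over 20446 genes), 7 of the 33 members tested rose and 13 fell, that is 21.2% and 39.4%, where 24.9% of all genes rose and 22.8% fell. The median log2 fold change of the members was -0.16, against 0.02 over all genes tested. With INDY, 6 members rose and 22 fell (18.2% and 66.7%), where 33.2% of all genes rose and 33.4% fell, and the median was -0.56 against -0.01. With a change of at least 1.5-fold required, 3 members were higher and 4 lower with harmine (where 8.41% and 7.89% of all genes passed), and 4 were higher and 16 lower with INDY (where 14.3% and 19.4% passed). The 4 libraries of each group did not overlap for 26 members with harmine (78.8%, against 55.1% of all genes) and for 30 with INDY (90.9%, against 67.5%).

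Of the members, 12 fell with both compounds and 3 rose with both (36.4% and 9.09% of those tested, where 12% and 12.1% of all genes did so). The 12 were ITGA5, ITGA7, ITGAM, ITGAV, ITGAX, ITGB5 and 6 laminin chains (LAMA1, LAMA2, LAMA3, LAMA5, LAMC1 and LAMC3), and the 3 were ITGA2, ITGA3 and ITGA6. ITGA4 and ITGB4 rose with harmine and fell with INDY. Calls with harmine alone were those of ITGB2 and ITGB3 (higher) and ITGB8 (lower), and calls with INDY alone were those of ITGA10, LAMB2 and LAMB3 (higher) and of ITGA1, ITGA11, ITGA2B, ITGA9, ITGB1, ITGB6, LAMA4 and LAMB1 (lower). Neither call was made for ITGA8 and ITGAE. A call with one compound and not the other does not show a difference, which was tested separately for each member.

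**Figure D1:**
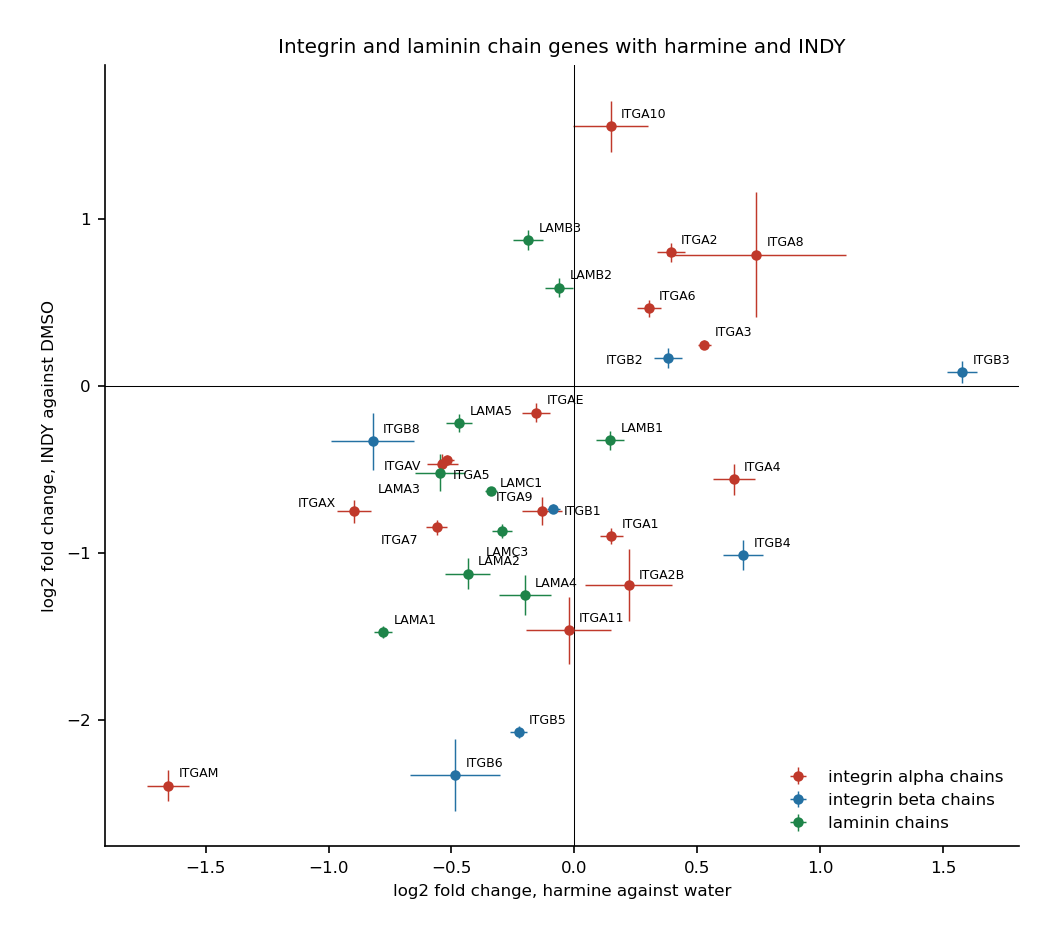
Log2 fold change of each of the 33 tested members with harmine against water (horizontal axis) and with INDY against DMSO (vertical axis). Points are estimates from 4 libraries a group, bars are standard errors and colours mark the 3 classes. ITGB3 stands at the far right near 0 on the vertical axis, ITGB5 and ITGB6 at the bottom near the middle and ITGAM at the bottom left.

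Per kilobase of transcript, the scale on which genes can be compared, ITGB1 led the beta chains in water at 500.3 CPM per kb, ahead of ITGB5 at 153. Of the alpha chains, ITGA3 led at 189.7, followed by ITGA2 at 89.6, ITGAV at 85.3, ITGA5 at 65.4 and ITGA6 at 37.8. The order of ITGA2 and ITGAV was within their spread. LAMB3 led the laminin beta chains at 128, whereas the laminin alpha chains were scarce, with LAMA1 at 19.8 and LAMA5 at 14.8. The summed beta integrin level was 662 ± 10.3 CPM per kb in water, 617 ± 10.8 in harmine, 670 ± 8.97 in DMSO and 350.1 ± 11.1 in INDY (SD, n = 4). The alpha integrin sum was 513 ± 21.6, 573 ± 4.2, 481 ± 11 and 536 ± 20.8 in the same order, so that the alpha sum was not lower in INDY than in DMSO.

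**Figure D2:**
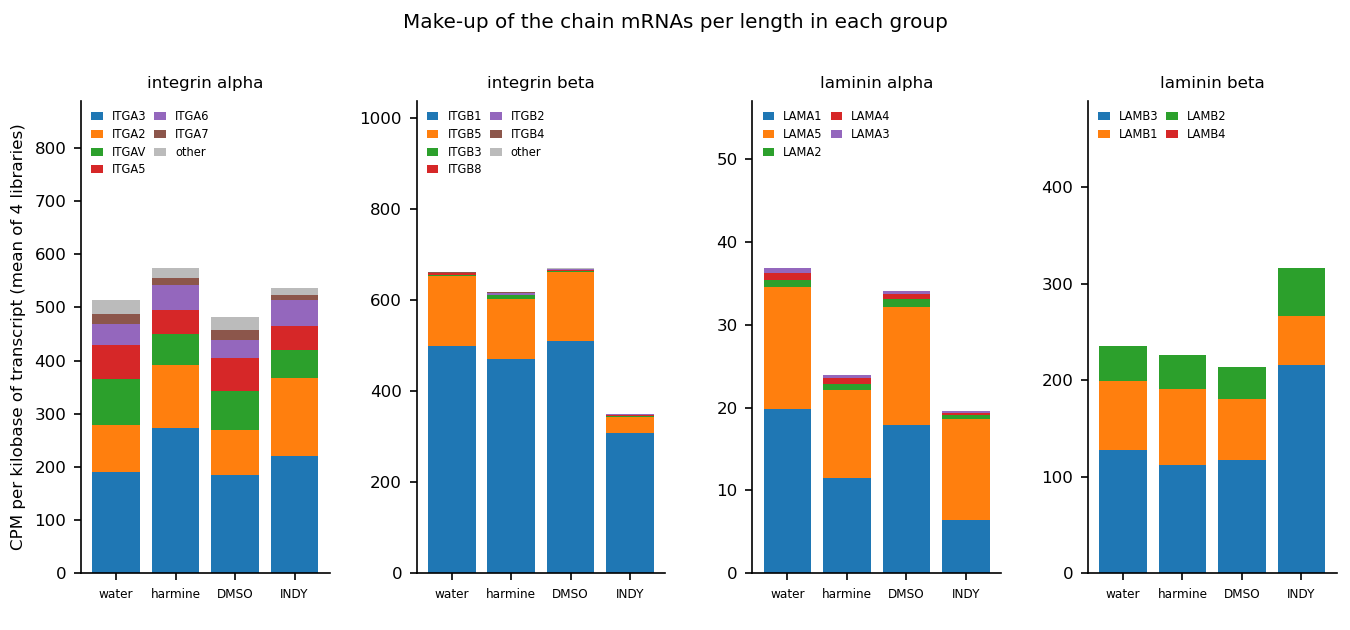
Stacked bars give the mean CPM per kilobase of transcript of each chain in the 4 groups (n = 4 libraries each), in separate panels for alpha and beta integrins and for alpha and beta laminins, each with its own vertical scale from 0. The beta integrin bar drops from 670 in DMSO to 350.1 in INDY, and the laminin beta bar rises from 214 to 316.

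ITGB1, the common partner at chr10:32887273-33005792, fell with INDY. It was at 1872, 1880.2, 1942 and 1929 CPM in the DMSO libraries and at 1158, 1134, 1105 and 1194 in the INDY libraries, with no overlap (log2 fold change -0.73 ± 0.028 SE, adjusted p = 5.61e-14). In water it was at 1868, 1889, 1907 and 1811 CPM and in harmine at 1815, 1773, 1716 and 1741, where the groups overlapped by 1 library. That difference (-0.09 ± 0.028) missed the threshold at an adjusted p of 0.0131 but passed it in several other settings, the adjusted p running from 0.0014 to 0.0265. It passed without water 4 (0.00623), harmine 1 (0.00331), harmine 2 (0.00904), DMSO 3 (0.00518), INDY 2 (0.00469), INDY 3 (0.00228), INDY 4 (0.00266) or both INDY 1 and 3 (0.00173). The change with harmine was smaller in size than that with INDY, the difference of the 2 effects being 0.65 ± 0.039 (adjusted p = 1.14e-10). Taken as levels per kilobase, ITGA2, ITGA3, ITGA5, ITGA6 and ITGAV together stood at 0.936 ± 0.0623 per unit of ITGB1 in water, 1.15 ± 0.0218 in harmine, 0.860 ± 0.0312 in DMSO and 1.67 ± 0.0988 in INDY. These ratios hold only for the MANE Select transcript lengths. With the longest transcript instead, ITGB1 in water was at 333 CPM per kb, against 500.3.

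Among the alpha chains that take collagen with ITGB1, ITGA2 and ITGA10 rose with INDY and ITGA1 and ITGA11 fell. ITGA2, the collagen receptor chain of platelets and epithelia at chr5:52989340-53094779, was at 699, 639, 654 and 635 CPM in DMSO and at 1248, 1002, 1264 and 1069 in INDY (1.74-fold, log2 0.80 ± 0.057, adjusted p = 3.19e-10). Its highest INDY values were those of replicates 1 and 3. It also rose with harmine, from 726, 681, 675 and 728 CPM to 937, 926, 919.5 and 907 (log2 0.39 ± 0.057, adjusted p = 9.7e-06), and the 2 effects differed by -0.41. ITGA10, a collagen receptor chain of cartilage, was lower in level, at 2.32, 1.67, 1.63 and 1.77 CPM in DMSO and 5.82, 4.90, 6.46 and 4.59 in INDY (2.94-fold, adjusted p = 3.13e-08). With harmine ITGA10 was at 3.80, 2.82, 2.96 and 3.11 CPM, overlapping the water libraries at 3.30, 2.17, 2.65 and 3.35. For DMSO against water the log2 difference of ITGA10 was -0.62 (adjusted p = 0.0168), and -0.38 without water 1 and 4 (adjusted p = 0.35). Without INDY 1 and 3 the log2 fold changes with INDY were 0.66 for ITGA2 and 1.36 for ITGA10, both still called.

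ITGA1, which also takes laminin, was at 31.9, 31.9, 30.6 and 29.9 CPM in DMSO and 19.0, 15.6, 15.7 and 16.6 in INDY, about 53.7% of its control (log2 -0.90 ± 0.05, adjusted p = 1.13e-11). In water it was at 33.6, 33.7, 33.4 and 34.4 CPM and in harmine at 38.5, 37.8, 37.8 and 36.0, all harmine libraries lying above water, with an adjusted p of 0.0111 that fell to 0.00136 without INDY 1 and to 0.00153 without INDY 1 and 3. Over all settings the adjusted p of ITGA1 with harmine ran from 0.00136 to 0.0495. The opposite signs of its 2 estimates gave a difference of 1.05 ± 0.069 (adjusted p = 3.52e-10). PELO lies within ITGA1 on the same strand, and 4.77% of the 100-base stretches of ITGA1 transcripts were shared with other genes, PELO among them. PELO held 11470, 8073, 10038 and 10224 counts in all in water, harmine, DMSO and INDY, against 8109, 7424, 6743 and 3529 for ITGA1. ITGA11, the fibroblast collagen receptor chain, was near the lower end of detection, at 0.715, 0.696, 0.702 and 0.775 CPM in DMSO and 0.260, 0.283, 0.209 and 0.299 in INDY (log2 -1.46 ± 0.20, adjusted p = 2.3e-06). The water libraries at 0.855, 0.776, 0.656 and 0.701 CPM and the harmine libraries at 0.984, 0.564, 0.687 and 0.717 overlapped for ITGA11.

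The laminin receptor chains ITGA3 and ITGA6 rose with both compounds, and ITGA7, the laminin receptor chain of muscle, fell with both. ITGA3 was at a mean of 927 ± 36.7 CPM in water, 1339 ± 21.3 in harmine, 908 ± 16.4 in DMSO and 1079 ± 23.2 in INDY (SD, n = 4). Its rise was larger with harmine (log2 0.53) than with INDY (0.25), a difference of 0.28 ± 0.04 (adjusted p = 6.05e-06). ITGA3 made up 37.0% ± 0.611 of the alpha chain level per kilobase in water and 47.8% ± 0.664 in harmine. ITGA6 was at 220.0 ± 8.38, 271 ± 7.67, 202 ± 2.3 and 279 ± 26.7 CPM in the same order, with log2 fold changes of 0.30 and 0.47. The difference of its effects (-0.16, adjusted p = 0.0472) passed only without INDY 3 (-0.25, adjusted p = 8.41e-05) or without INDY 1 and 3 (-0.27, adjusted p = 3.76e-05) among the settings at the same threshold.

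ITGA7 was at 82.8, 79.7, 77.4 and 88.4 CPM in water and 57.9, 51.7, 57.1 and 56.0 in harmine (log2 -0.56 ± 0.043, adjusted p = 2.66e-09). The DMSO libraries stood at 74.7, 73.5, 72.1 and 71.7 CPM and the INDY libraries at 41.3, 40.9, 42.0 and 38.3 (-0.84 ± 0.044, adjusted p = 3.42e-12). Treated and control libraries were fully apart in both comparisons.

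ITGB4, the partner of ITGA6 in hemidesmosomes, moved in opposite directions with the 2 compounds. It was at 7.60, 8.13, 8.31 and 8.03 CPM in water and 11.9, 13.2, 12.2 and 14.3 in harmine (1.61-fold, adjusted p = 7.55e-07). In DMSO it was at 6.84, 7.93, 8.73 and 7.86 and in INDY at 3.50, 4.33, 3.52 and 4.23 (0.496-fold, adjusted p = 6.54e-09), and no library of a treated group overlapped its control. The effects differed by 1.70 ± 0.12 (adjusted p = 8.61e-10). Per kilobase, ITGA6 stood at 27.8 ± 1.03 per unit of ITGB4 in water, 21.5 ± 2.16 in harmine, 26.4 ± 2.89 in DMSO and 73.0 ± 6.02 in INDY.

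The fibronectin receptor chain ITGA5 fell with both compounds, from a mean of 278 ± 13.5 CPM in water to 194 ± 2.57 in harmine and from 257 ± 3.14 in DMSO to 189.6 ± 3.03 in INDY. Its log2 fold changes were -0.52 and -0.44, with a difference of -0.08 ± 0.042 that missed the threshold (adjusted p = 0.113). ITGA4, which takes fibronectin and VCAM1 on leukocytes and other cells, was at 8.96, 10.0, 10.9 and 9.40 CPM in water and 16.4, 14.6, 15.0 and 15.6 in harmine (log2 0.65 ± 0.086, adjusted p = 3.21e-06). In DMSO ITGA4 was at 8.02, 8.73, 8.27 and 8.72 and in INDY at 5.74, 6.35, 4.45 and 6.50 (-0.56 ± 0.093, adjusted p = 2.73e-05), so that its direction turned between the compounds. ITGA9, close to ITGA4 in the family, was at 6.74, 6.68, 6.64 and 6.59 CPM in DMSO and 4.24, 4.39, 3.29 and 4.0 in INDY (-0.75 ± 0.084, adjusted p = 1.86e-07). Its water libraries, at 5.64, 6.08, 6.70 and 5.73 CPM, and its harmine libraries, at 5.81, 5.36, 5.81 and 5.12, overlapped.

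Of the beta partners of ITGAV, ITGB3 rose with harmine and ITGB5 and ITGB6 fell steeply with INDY. ITGB3, at chr17:47253827-47313743, pairs with ITGAV as the vitronectin receptor and with ITGA2B on platelets. It was at 16.8, 16.9, 16.7 and 19.7 CPM in water and 52.8, 52.7, 49.4 and 54.0 in harmine (2.98-fold, log2 1.58 ± 0.062, adjusted p = 5.07e-13). In DMSO it was at 14.9, 14.0, 13.9 and 12.7 and in INDY at 15.6, 13.0, 15.5 and 14.8, which overlapped (0.08 ± 0.066, adjusted p = 0.258). The difference of the effects was 1.49 ± 0.09 (adjusted p = 1.03e-10). DMSO lay below water, with a log2 difference of -0.33. Of the 100-base stretches of ITGB3 transcripts, 32.1% were shared with AC068234.1, to which 36, 41, 48 and 103 counts were assigned in all in water, harmine, DMSO and INDY.

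ITGB5, an RGD receptor chain at chr3:124761948-124901418, fell with INDY to 23.8% of its control. It was at 681, 667, 675 and 668 CPM in DMSO and 152, 172, 150.3 and 168 in INDY (log2 -2.07 ± 0.036, adjusted p = 1.39e-18). With harmine the fall was smaller, from 674, 688, 672 and 679 CPM to 573, 575, 577 and 594 (-0.23 ± 0.034, adjusted p = 1.56e-05), and the effects differed by 1.84 ± 0.049 (adjusted p = 1.69e-15). In both comparisons every treated library lay below every control library.

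ITGAV itself fell with both compounds, from a mean of 600.4 ± 64.3 CPM in water to 414 ± 11.6 in harmine (log2 -0.54) and from 521 ± 26.7 in DMSO to 377 ± 28 in INDY (-0.47). Its water replicates 1 and 4 were the higher ones, and without them the log2 fold change with harmine was -0.40 (adjusted p = 1.39e-05). Per unit of ITGAV, ITGB5 stood at 1.81 ± 0.2 in water, 2.22 ± 0.0926 in harmine, 2.05 ± 0.0869 in DMSO and 0.679 ± 0.0952 in INDY, all per kilobase. ITGB5 exceeded ITGB3 by 52.1 ± 4.05 times in water and 65.1 ± 3.76 in DMSO. The ratio was 14.9 ± 0.519 in harmine, where ITGB3 was higher, and 14.7 ± 2.2 in INDY, where ITGB5 was lower.

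ITGB6 and ITGB8, which with ITGAV bind latent TGF-beta, were lower in level. ITGB6 was at 2.11, 3.10, 2.31 and 2.48 CPM in DMSO and 0.280, 0.792, 0.434 and 0.470 in INDY (log2 -2.33 ± 0.21, adjusted p = 1.17e-08). With harmine it was at 1.83, 1.56, 1.53 and 1.81 CPM against 2.18, 2.37, 2.89 and 1.95 in water, all harmine libraries being lower, at an adjusted p of 0.03 that became 0.00833 without INDY 2 and 0.00892 without INDY 1 and 3. Over all settings the adjusted p of ITGB6 with harmine ran from 0.00619 to 0.104. Of its 100-base stretches 12.4% were shared with AC092153.1, which held 59, 28, 48 and 8 counts in water, harmine, DMSO and INDY. ITGB8 was at 27.4, 17.6, 18.6 and 32.3 CPM in water and 14.3, 13.4, 13.6 and 12.8 in harmine (-0.82 ± 0.17, adjusted p = 0.000383), and the water replicates 1 and 4 were the high ones. Without those replicates the fall of ITGB8 was -0.42 and missed the threshold (adjusted p = 0.0195). In DMSO ITGB8 was at 17.0, 14.7, 15.5 and 14.3 CPM and in INDY at 14.5, 9.31, 15.0 and 9.91, where INDY 1 and 3 overlapped DMSO (-0.33, adjusted p = 0.0927), and without INDY 1 and 3 its log2 fold change was -0.67 (adjusted p = 0.00494). ITGA2B, the platelet partner of ITGB3, was at 0.585, 0.676, 0.599 and 0.581 CPM in DMSO and 0.260, 0.358, 0.161 and 0.299 in INDY (-1.19 ± 0.21, adjusted p = 5.92e-05). It stood at 0.641, 0.915, 0.730 and 0.736 CPM in water and 0.938, 0.941, 0.746 and 0.916 in harmine, which overlapped.

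Among chains named for leukocytes, ITGAM and ITGAX fell with both compounds while their partner ITGB2 rose with harmine. ITGAM, the alpha chain of the complement receptor of myeloid cells at chr16:31259967-31332892, was at 33.9, 35.0, 36.8 and 36.5 CPM in water and 12.4, 10.6, 10.7 and 11.6 in harmine (log2 -1.65 ± 0.087, adjusted p = 1.76e-11). In DMSO it was at 34.7, 31.9, 32.1 and 33.3 and in INDY at 6.02, 7.80, 4.75 and 6.73 (-2.39 ± 0.093, adjusted p = 7.32e-14), its largest change. ITGAX, its neighbour on chromosome 16 with a related role in dendritic cells, was at 43.3, 44.6, 45.4 and 44.5 CPM in water and 22.3, 23.3, 24.7 and 25.1 in harmine (-0.90 ± 0.069, adjusted p = 2.71e-09). For ITGAX, DMSO was at 40.0, 43.7, 47.3 and 46.8 and INDY at 24.5, 30.7, 23.5 and 27.2 (-0.75 ± 0.068, adjusted p = 1.01e-08). All treated libraries lay below all controls for both genes. The effects on ITGAX differed by -0.15 (adjusted p = 0.186), and by -0.30 without INDY 1 and 3 (adjusted p = 0.00516).

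ITGB2 was at 5.18 ± 0.148 CPM in water and 6.74 ± 0.185 in harmine (log2 0.38, adjusted p = 1.36e-05), and at 5.22 ± 0.261 in DMSO and 5.87 ± 0.176 in INDY (0.17, adjusted p = 0.0132, which became 0.00899 without INDY 4). Over all settings the adjusted p of ITGB2 with INDY ran from 0.00899 to 0.126. Per kilobase, ITGAM stood at 4.09 ± 0.255 per unit of ITGB2 in water, 1.00 ± 0.0996 in harmine, 3.77 ± 0.258 in DMSO and 0.641 ± 0.128 in INDY. The 8 blood cell markers summed to 11.5 to 14.4 CPM in water, 13.0 to 14.2 in harmine, 11.8 to 14.9 in DMSO and 27.7 to 35.6 in INDY, nearly all of it CD68, a lysosomal protein that other cells make too. CD14, a monocyte receptor, was at means of 0.0947, 0.104, 0.0664 and 1.5 CPM in water, harmine, DMSO and INDY. PTPRC, carried by all nucleated blood cells, had means of 0.281, 0.392, 0.164 and 0.0201 CPM in water, harmine, DMSO and INDY, and GP9 of platelets was at 0 throughout. ITGAE, an alpha chain of lymphocytes in epithelia, was at means of 8.1 to 9.02 CPM with neither call, and ITGA8 was at 0.0876 to 0.434 CPM with neither call.

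**Figure D3:**
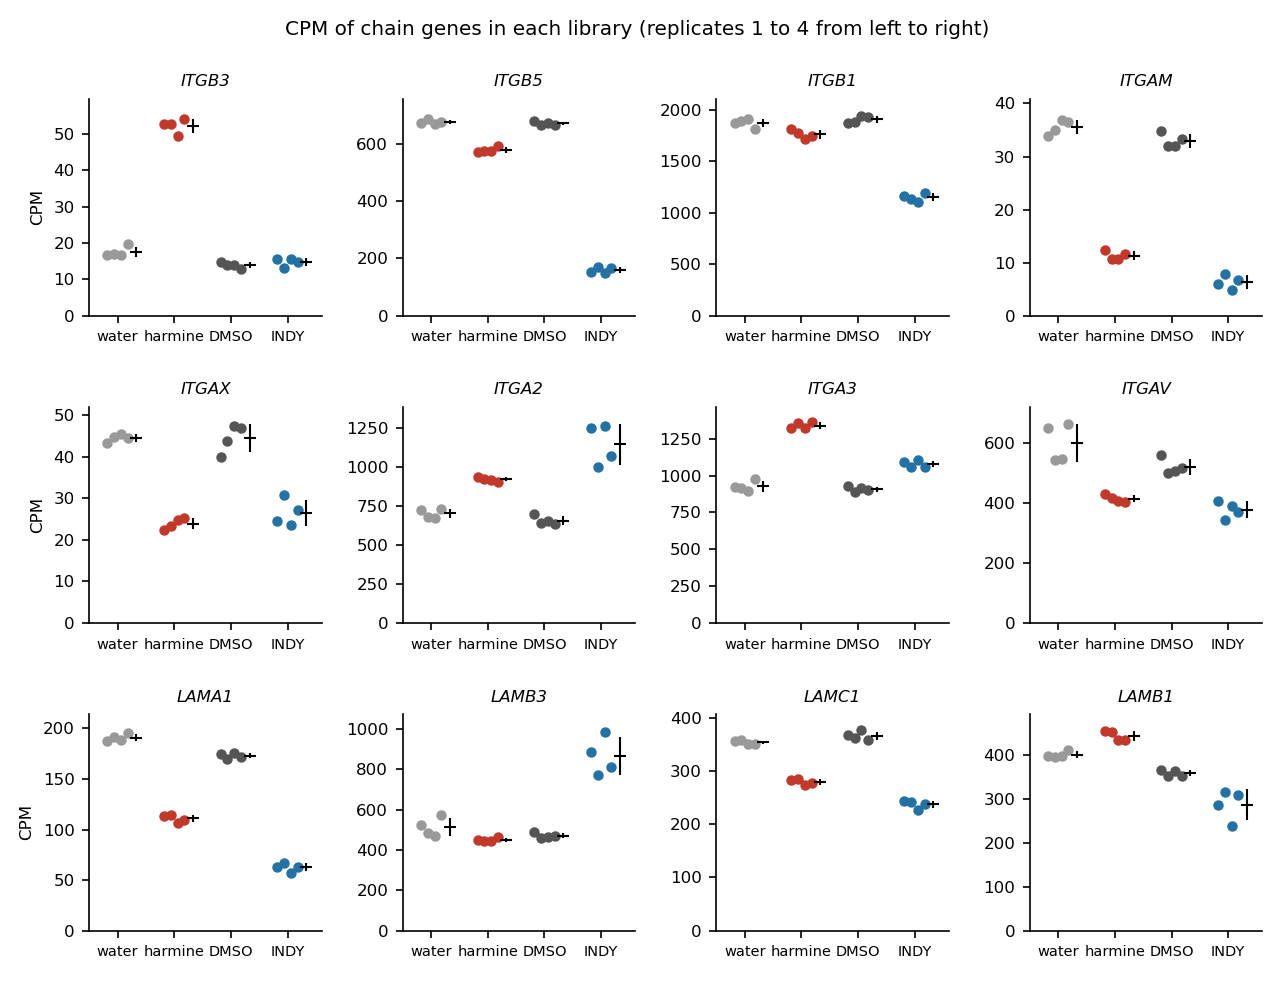
CPM of 12 members in each of the 16 libraries, grouped as water, harmine, DMSO and INDY, with 1 point per library, replicates 1 to 4 from left to right, and the mean and SD beside them; each vertical axis starts at 0. ITGB3 is raised in harmine alone (49.4 to 54.0 CPM), ITGB5 is lowest in INDY (150.3 to 172 CPM) and LAMB3 is highest in INDY (774 to 986 CPM).

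More laminin chains fell than rose with each compound. With harmine 6 of the 10 tested fell (60%, where 22.8% of all genes fell) and 0 rose (24.9% of all genes), with 1 nominally higher at an unadjusted p under 0.05 by edgeR and 0 higher by DESeq2 or limma voom. With INDY 8 fell and 2 rose (80% and 20%, where 33.4% and 33.2% of all genes did), so that each of the 10 was called. The median log2 fold change was -0.32 with harmine and -0.57 with INDY. With at least 1.5-fold required, 1 of the 10 fell with harmine (10%, where 7.89% of all genes did). At that size 2 rose and 5 fell with INDY (where 14.3% and 19.4% of all genes did).

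LAMA1, an alpha chain of embryonic basement membranes at chr18:6941742-7117797, was at 187, 192, 189 and 195 CPM in water and 113, 115, 107 and 109.9 in harmine (log2 -0.78 ± 0.037, adjusted p = 4.69e-12). In DMSO it was at 175, 169.8, 175 and 172 and in INDY at 63.1, 66.9, 57.2 and 62.8 (-1.47 ± 0.038, adjusted p = 2.46e-16), with an effect difference of 0.69 (adjusted p = 2.01e-09). LAMA5, the other main alpha chain and one of many adult basement membranes, fell less with INDY, from 162 ± 3.67 to 139 ± 7.32 CPM (-0.22), than with harmine, from 169 ± 9.07 to 122 ± 11 (-0.47). That difference of -0.25 ± 0.075 (adjusted p = 0.00752) missed the threshold without water 4 (0.0186), harmine 2 (0.0107), DMSO 2 (0.0164), DMSO 4 (0.0175), INDY 1 (0.0191), water 1 and 4 (0.019) or INDY 1 and 3 (0.0143). LAMA1 made up 52.7% ± 0.257 of the laminin alpha level per kilobase in DMSO and 33.1% ± 1.32 in INDY, and LAMA5 41.7% ± 0.4 and 62.2% ± 1.43.

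LAMA2, the alpha chain of muscle and nerve basement membranes, was at 8.61, 8.80, 9.48 and 7.55 CPM in water, 6.66, 6.23, 6.47 and 6.17 in harmine, 9.41, 10.6, 9.74 and 9.88 in DMSO and 4.24, 5.28, 3.65 and 5.11 in INDY. Its log2 fold change was -0.43 with harmine (adjusted p = 0.00054) and -1.12 with INDY (adjusted p = 3.54e-09), with the treated libraries below the controls in both. LAMA4, an alpha chain of vessel walls, was at 4.27, 4.26, 4.33 and 4.74 CPM in DMSO and 2.08, 1.36, 2.30 and 1.60 in INDY (-1.25 ± 0.12, adjusted p = 2.33e-08). With harmine LAMA4 was at 5.49, 5.21, 6.04 and 4.90 CPM against 6.51, 5.82, 6.36 and 6.22 in water, which overlapped. Its DMSO libraries lay below its water libraries (log2 difference -0.50). The 4 endothelial markers summed to 6.76 to 7.94 CPM in water, 5.3 to 6.2 in harmine, 5.41 to 6.2 in DMSO and 2.81 to 3.95 in INDY. These markers did not all move the same way. PECAM1 had means of 2.397 CPM in DMSO and 2.455 in INDY, whereas VWF, CDH5 and KDR had lower means in INDY. CDH5 had means of 0.418 CPM in water and 1.019 in harmine, whereas PECAM1, VWF and KDR had lower means in harmine. The part of these markers in the change of LAMA4 was not tested.

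LAMA3 and LAMB3 are chains of a laminin of epithelial anchoring junctions, and moved in opposite directions with INDY. LAMA3, a minor alpha chain here, had 5.58 ± 0.686 CPM in water, 3.83 ± 0.535 in harmine, 2.98 ± 0.231 in DMSO and 2.08 ± 0.126 in INDY, and fell with both compounds (log2 -0.55 and -0.52), and the log2 difference of DMSO from water was -0.91.

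LAMB3, at chr1:209614870-209652425, was at 490.0, 459, 466 and 469.9 CPM in DMSO and 886, 774, 986 and 811 in INDY, a 1.83-fold rise (log2 0.88 ± 0.063, adjusted p = 3.4e-10). In water it was at 525, 485, 472 and 573 CPM and in harmine at 449, 446, 445 and 464, all below water (-0.19 ± 0.062) but past the threshold only in some settings (adjusted p = 0.0148, range 0.000693 to 0.298). Water 1 and 4 were the highest for LAMB3, and without them the estimate was -0.08 (adjusted p = 0.298). The adjusted p was 0.00755 without water 2, 0.00405 without water 3, 0.0049 without INDY 2, 0.00157 without INDY 3, 0.0095 without INDY 4 and 0.000693 without INDY 1 and 3. The effects of the 2 compounds on LAMB3 differed by -1.06 ± 0.088 (adjusted p = 7.04e-09). LAMB3 stood at 245 ± 16.6 per unit of LAMA3 in water, 317 ± 42.3 in harmine, 422 ± 33.3 in DMSO and 1104 ± 129 in INDY, per kilobase. The size of this ratio depends on the length taken for LAMA3, here 10651 bases. A start inside LAMA3 is listed, and which form was present was not tested. The INDY replicates 1 and 3 were highest for LAMB3, and replicates 2 and 4 still exceeded every DMSO library (log2 fold change 0.76 without INDY 1 and 3). Of 5 epithelial markers, KRT5 and KRT14 were near 0 and the sum, mostly KRT18, was 347 to 364 CPM in DMSO and 357 to 376 in INDY. EPCAM and CDH1 had lower means in INDY (2.33 and 0.0988 CPM) than in DMSO (3.51 and 0.22), and KRT18 a higher one (360 against 351). The part of these markers in the change of LAMB3 was not tested.

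LAMB2, a beta chain of synaptic and kidney basement membranes, was at 200.3, 187, 182 and 180.4 CPM in DMSO and 295, 279, 291 and 265 in INDY (log2 0.59 ± 0.057, adjusted p = 2.1e-08). In water it was at 218, 192, 191 and 239 CPM and in harmine at 202, 205, 202 and 196, which overlapped, and the estimate of -0.06 was 0.07 without water 1 and 4. LAMB1, the widespread beta chain, fell with INDY from 359 ± 7.77 to 287 ± 35 CPM (-0.32, adjusted p = 5.56e-05). INDY 3 was the lowest at 238 CPM, the other INDY libraries lying between 287 and 315, and without INDY 1 and 3 the fall of LAMB1 was -0.20 (adjusted p = 1.03e-05). LAMB1 was at 400.5 ± 7.39 CPM in water and 443 ± 11.5 in harmine (0.15, adjusted p = 0.0376, which became 0.000736 without INDY 3 and 0.000122 without INDY 1 and 3). Over all settings that adjusted p ran from 0.000122 to 0.116. LAMB1 stood at 1.93 ± 0.0732 per unit of LAMB2 in DMSO and 1.03 ± 0.16 in INDY, per kilobase.

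LAMC1, the gamma chain of most laminins, was at 355, 358, 351 and 351 CPM in water and 283, 285, 274 and 277 in harmine (log2 -0.34 ± 0.026, adjusted p = 3.03e-09). The DMSO libraries stood at 368, 362, 376 and 359 and the INDY libraries at 243, 241, 227 and 238 (-0.63 ± 0.026, adjusted p = 1.97e-13). LAMC3, a gamma chain of more limited range, was at 99.2, 110.2, 105 and 99.5 CPM in water, 82.0, 81.7, 87.7 and 86.5 in harmine, 99.3, 109, 108 and 106 in DMSO and 59.0, 60.2, 55.6 and 56.7 in INDY. Its log2 fold changes were -0.29 and -0.87, and the groups were apart in each comparison. The summed laminin beta level per kilobase was 236 ± 16.6 in water, 226 ± 1.99 in harmine, 214 ± 5.72 in DMSO and 316 ± 19 in INDY.

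**Figure D4:**
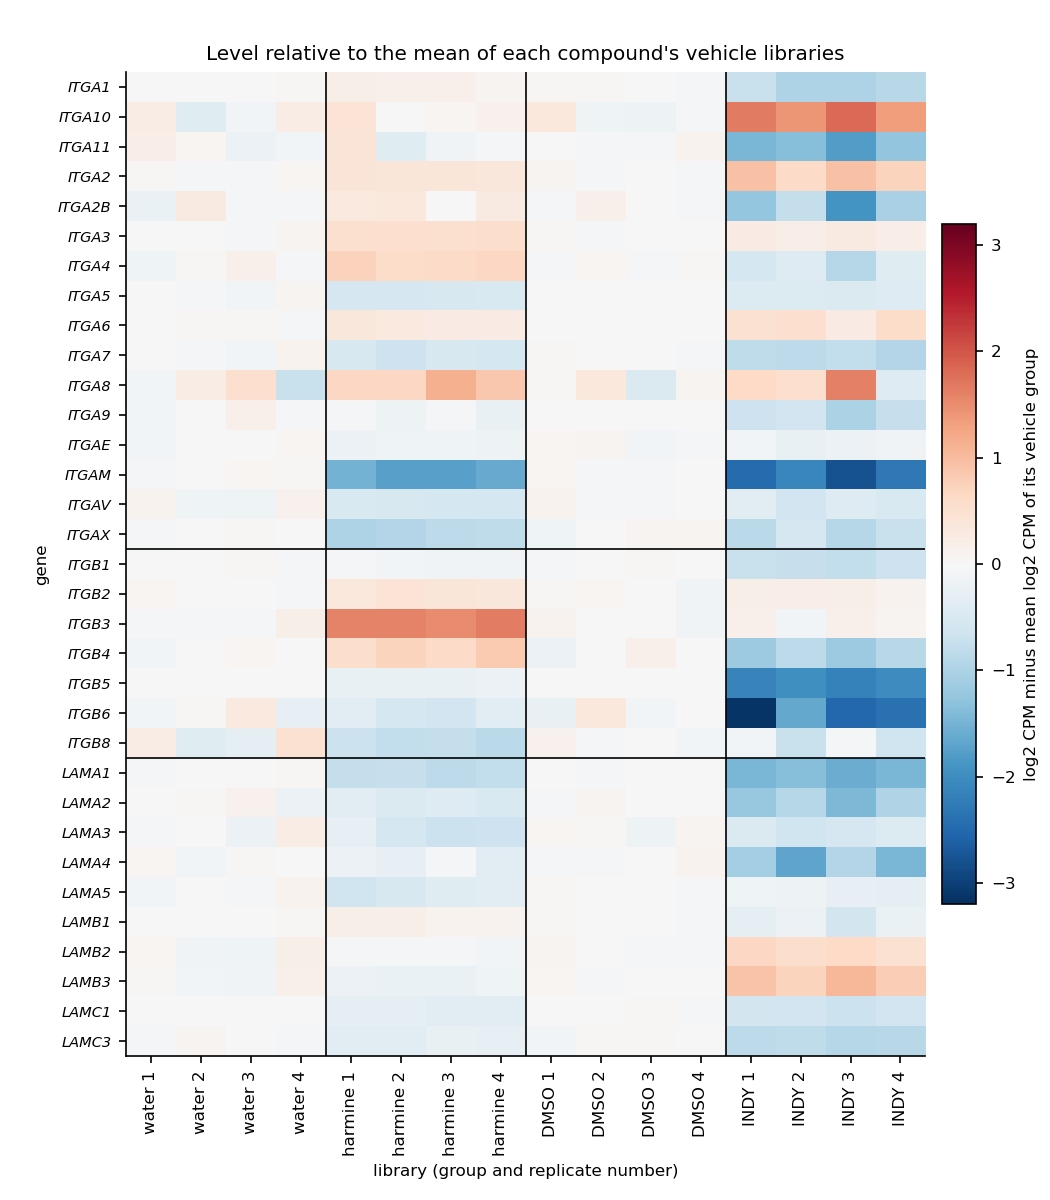
Each cell gives log2 CPM in 1 library minus the mean of the vehicle libraries of its compound (water for harmine, DMSO for INDY), for the 33 tested members in rows and the 16 libraries in columns; red is higher and blue lower. The INDY columns are blue for most members. ITGA2, ITGA3, ITGA6, ITGA10, ITGB2, LAMB2 and LAMB3 are red, some of them faintly, in each of the 4 INDY columns. ITGB3 is red in the 4 harmine columns.

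Tested directly, the harmine effect lay above the INDY effect for 19 of the 33 members and below it for 5, that is 57.6% and 15.2%, where 28.1% and 26.4% of all genes did so. The 5 were ITGA10, ITGA2, LAMA5, LAMB2 and LAMB3. The widest gaps above were those of ITGB5 and ITGB6 (1.84 and 1.84), ITGB4 (1.70) and ITGB3 (1.49). For ITGAV (-0.07 ± 0.088 SE) and LAMA3 (-0.03 ± 0.15 SE) no difference was detected.

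Between the vehicles, 3 members were lower in DMSO than in water and 0 were higher, where 2.7% and 1.58% of all genes were. The 3 were LAMA3 (-0.91), LAMA4 (-0.50) and ITGB3 (-0.33). At an unadjusted p under 0.05 edgeR gave 14 lower and 1 higher, and DESeq2 called 7 lower and 0 higher, limma voom 3 and 0. The call for LAMA3 held without any 1 library. That for ITGB3 was lost without water 4, DMSO 2, DMSO 3 or DMSO 4 (adjusted p = 0.0124 to 0.0163), and that for LAMA4 without water 1, water 3, water 4 or any of the 4 DMSO libraries (0.0127 to 0.0236). Without water 1 and 4 together only that for LAMA3 was left. The count lower in DMSO was 1 without water 4, DMSO 2, DMSO 3 or DMSO 4, 5 without water 2 or water 3 and 7 without INDY 3.

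Other genes of the adhesion system were read from lists. Of 40 adhesome genes (adaptors and kinases at integrin tails), 19 rose and 4 fell with harmine (47.5% and 10%, where 24.9% and 22.8% of all genes did), and 17 rose and 15 fell with INDY (42.5% and 37.5%, where 33.2% and 33.4% did). The actin crosslinkers ACTN4 and ACTN1 rose with harmine by 0.74 and 0.67 on the log2 scale, and the focal adhesion kinase relative PTK2B by 0.70. With INDY, LPXN, TLN2 and TNS3 fell (log2 fold changes -1.30, -1.23 and -0.89), and ACTN1 fell too (-0.45). ACTN4 and PTK2B rose with INDY as well (0.18 and 0.20), and TLN2 also fell with harmine (-0.43). With at least 1.5-fold required, 0 of the 40 rose and 7 fell with INDY, where 14.3% and 19.4% of all genes did. The median log2 fold change of the list was 0.14 with harmine and 0.06 with INDY.

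Of 22 basement membrane partners tested, 8 rose and 3 fell with harmine (36.4% and 13.6%, with 24.9% and 22.8% over all genes), and 1 rose and 15 fell with INDY (4.55% and 68.2%, with 33.2% and 33.4% over all genes), with medians of 0.04 and -0.84. COL4A1 and COL4A2, the main type IV collagen chains, rose with harmine (0.64 and 0.52) and fell with INDY (-0.83 and -1.48). SMOC1, a SPARC relative, did the same (1.46 and -1.07), whereas the proteoglycan HSPG2 fell with both (-0.67 and -1.28). PXDN, which crosslinks type IV collagen, and FREM2 fell with INDY (-1.31 and -1.38).

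Of 22 other integrin ligands tested, 5 rose and 10 fell with harmine (22.7% and 45.5%, with 24.9% and 22.8% over all genes) and 5 rose and 12 fell with INDY (22.7% and 54.5%, with 33.2% and 33.4%). FN1, the ligand of ITGA5 with ITGB1, was at 1009 ± 188 CPM in water, 1878 ± 69.5 in harmine, 889.7 ± 59.3 in DMSO and 310.2 ± 36.7 in INDY. THBS1 and TGFBI also rose with harmine (1.29 and 0.85) and fell with INDY (-0.66 and -1.68). LTBP1, which tethers latent TGF-beta, fell with INDY (-1.40), and TGFB3 fell with harmine (-0.90) and rose with INDY (0.39). Of 19 other laminin receptors and surface partners, 5 rose and 8 fell with harmine (26.3% and 42.1%) and 6 rose and 7 fell with INDY (31.6% and 36.8%), of which the shares that rose with harmine and that rose or fell with INDY were near those over all genes. The syndecan SDC1 rose with harmine (0.67), SDC4 and the integrin-binding SLC3A2 rose with INDY (0.90 and 1.17), and the tetraspanin CD82 (-1.22 and -0.96) and the urokinase receptor PLAUR (-0.59 and -0.38) fell with both.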

How the data were processed

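Polyadenylated RNA of U2OS cells was sequenced from stranded TruSeq libraries. Per the labels and the study's methods, the authors quantified reads with Salmon 1.1 against a decoy-aware GENCODE transcriptome (GRCh38) and summed them to genes with tximport, which gave the deposited table of estimated counts for 59081 genes, not normalized; the authors tested with edgeR 3.28.1. Here the estimated counts were rounded and fitted with edgeR 4.0.16 (R 4.3.3): filterByExpr (20446 genes kept), TMM factors (0.982 to 1.022), 1 mean per group over 16 libraries, glmQLFit and glmQLFTest, Benjamini-Hochberg adjustment over all genes tested and a threshold of 0.01. The common biological coefficient of variation was 0.0561. CPM used TMM-scaled library sizes, and between genes it was divided by the length of the MANE Select transcript (GENCODE 44, GRCh38), not the authors' effective length. The scripts were tested on simulated counts. Reads shared between genes were split by Salmon's estimate, so genes that share sequence are less certain.

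No 2 libraries of a group agreed within sampling noise (chi-square per degree of freedom 2.06 to 29.9). Replicate numbers were checked as pairs, with correlations of same-numbered deviations of -0.053 to 0.087. Alternatives were DESeq2 1.42.0, limma 3.58.1 (voom), other scaling and filters, other thresholds, the 8 libraries compared, a replicate block and libraries left out. Of the 38 genes found by the rule, 1 is not reported here. Members and lists were chosen with earlier results of these data known. Values in every library are given for members called with at least 1 compound with a change of at least 1.5-fold, at most 10 per class, and for ITGB1; for each list, at most the 3 called genes with the largest change per compound and a mean log2 CPM of at least 1 are named.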

Additional observations from a re-analysis of the deposited data

Results flagged for a closer look

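In 5 of 132 groups of 4 libraries (33 members in 4 groups), 1 library stood apart from the other 3 by more than Dixon's critical ratio for 4 samples allows, and chance flags about 1 in 20 groups. These were ITGA2B in harmine 3 (0.746 CPM, the others 0.916 to 0.941), ITGA6 in DMSO 3 (199 CPM, the others 203 to 204), ITGB3 in water 4 (19.7 CPM, the others 16.7 to 16.9), LAMA4 in DMSO 4 (4.74 CPM, the others 4.26 to 4.33) and LAMB3 in harmine 4 (464 CPM, the others 445 to 449).

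The harmine effect and the INDY effect differed for 24 members by the edgeR contrast of the 2 effects (adjusted p under 0.01, given as harmine minus INDY on the log2 scale). Among integrin alpha chains the differences were 1.05 for ITGA1, -1.41 for ITGA10, 1.44 for ITGA11, -0.41 for ITGA2, 1.41 for ITGA2B, 0.28 for ITGA3, 1.2 for ITGA4, 0.28 for ITGA7, 0.62 for ITGA9 and 0.74 for ITGAM. Among integrin beta chains they were 0.65 for ITGB1, 1.49 for ITGB3, 1.7 for ITGB4, 1.84 for ITGB5 and 1.84 for ITGB6. Among laminin chains they were 0.69 for LAMA1, 0.69 for LAMA2, 1.05 for LAMA4, -0.25 for LAMA5, 0.47 for LAMB1, -0.65 for LAMB2, -1.06 for LAMB3, 0.29 for LAMC1 and 0.58 for LAMC3.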

How the results depend on the processing

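The counts of members higher and lower with INDY stayed within 1.5 times their main values under every alternative run other than the counts over 1.5-fold already given, and no called value reversed its direction. Of 132 estimates of single members, 15 took both signs among the alternatives, and 0 of the 15 were called. With a change of at least 1.5-fold required, 3 members were higher and 4 lower with harmine and 3 lay below with harmine relative to INDY. The members lower in DMSO than in water, 3 in all, were 7 with DESeq2, 7 with no filter on low counts, 5 with only the 8 libraries compared, 1 without water 1 and 4, 9 without INDY 1 and 3, 9 at an adjusted p under 0.05, 1 at 1.5-fold and 1 to 7 with 1 library left out. The 3 basement membrane partners lower with harmine were 5 with DESeq2, 5 with only the 8 libraries compared, 5 without INDY 1 and 3, 5 at an adjusted p under 0.05 and 3 to 5 with 1 library left out. Of the surface partners, 3 rose with harmine with no filter on low counts (3 to 6 with 1 library left out) and 5 fell without water 1 and 4. With at least 1.5-fold required, 8.41% of all genes rose and 7.89% fell with harmine, and 14.3% and 19.4% with INDY. At that size harmine raised 3 of the 40 adhesome genes and lowered 0, and INDY raised 0 and lowered 7. Of the 22 basement membrane partners tested, harmine raised 3. Of the 22 other ligands tested, harmine raised 3 and lowered 6, and INDY raised 3. Of the 19 surface partners, harmine raised 1 and lowered 2, and INDY raised 2 and lowered 2. The cause of these moves was not tested, other than the stricter or looser threshold itself.

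Same-numbered libraries of water and harmine correlated at -0.053 to -0.007, and 0 of 8 correlated best with their own number. For DMSO and INDY the correlations were -0.019 to 0.087, and 5 of 8 libraries correlated best with their own number. For water and DMSO they were -0.012 to 0.073, and 4 of 8 did so. These values do not settle whether libraries of DMSO and INDY, or of water and DMSO, were paired by number. With a replicate block, 7 members rose and 13 fell with harmine, 6 and 22 with INDY, 19 lay above and 4 below for harmine relative to INDY, and 4 were lower in DMSO than in water. ITGA8 had a mean of 10.8 counts a library, and its log2 fold changes had standard errors of 0.365 with harmine and 0.373 with INDY.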
